A study of Homo sapiens with 9 samples.

Results

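The genes described here are the nuclear genes for subunits and assembly factors of mitochondrial complex I that carry an NDUF name. They were taken as every gene of the array table whose probe set has a single platform symbol made of NDUFA, NDUFAB, NDUFAF, NDUFB, NDUFC, NDUFS or NDUFV and a number, with the brightest probe set where a gene had several. This gave 40 genes of 22465. Total RNA had been measured on 9 arrays, 3 per group, from cells labelled as SH-SY5Y, a human neuroblastoma line grown in culture with serum. The groups were untreated cells and cells exposed for 12 h to okadaic acid at 20 nM or at 60 nM. Okadaic acid, a polyether made by marine dinoflagellates, blocks the protein phosphatases PP2A and PP1. The labels of the 60 nM arrays contradict each other: the treatment field reads 20 nM, whereas the design text and the source name read 60 nM, and the arrays are taken here as 60 nM. All groups came from the same line. The arrays are labelled as biological replicates, and since nothing says that they came from separate cultures, the p-values cover only the spread among these samples, which may be technical.

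Complex I, or NADH:ubiquinone oxidoreductase, is the entry point of the respiratory chain, where electrons from NADH pass over a flavin and a row of iron-sulfur clusters to ubiquinone while protons are pumped across the inner mitochondrial membrane. Its matrix arm holds the cofactors. Its membrane arm holds the proton pumps, whose core is encoded by mitochondrial DNA. Most of the remaining subunits are accessory proteins, and the NDUFAF proteins help to build the complex without staying in it. Neurons depend heavily on oxidative phosphorylation, and loss of complex I activity is a known cause of neurodegenerative disease.

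Values are log2 intensities, and a difference is a log2 difference with its standard error (SE) from limma, where a negative value means a lower intensity in the group named first. A gene was called where limma's p, adjusted over all 22465 genes by Benjamini-Hochberg, was under 0.05. The background level was 5.82, the 95th percentile of 23 background probe sets. Intensities of different genes depend on their probes, and levels between genes are not compared as amounts of RNA. In bulk RNA, fewer cells that express a gene and less RNA per cell cannot be told apart. Precision is limited by having 3 arrays per group. Arrays of a group correlated across genes at 0.995 to 0.999. The labelled cell type was not borne out by its defining markers: of 8 measured noradrenergic neuroblastoma markers only GATA3 was above background, and it fell by 0.23 at 60 nM (limma adjusted p = 0.0041). The levels of TH, DBH and PHOX2A lay between 3.49 and 4.57 in untreated cells. Of 8 mesenchymal neuroblastoma markers 5 were above background in untreated cells. At 60 nM 5 of the 8 rose, where 7.94% of all genes rose, and PRRX1 fell by 0.32 (adjusted p = 0.00485). The risers FOSL1 and FOSL2 and PRRX1 were below background in untreated cells. Of the epithelial markers 3 of 6 were above background, with no call in either direction. In untreated cells KRT8 was at 13.34, KRT18 at 12.56 and KRT19 at 6.37, while EPCAM, CDH1 and CLDN4 lay between 3.99 and 4.37. Of 5 measured leukocyte markers only CD68 was above background, and it rose by 1.88 at 60 nM (limma adjusted p = 4.62e-05). The part of any change in cell makeup in the results below was not tested.

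Of the 40 complex I genes, 38 had a mean over the 9 arrays above background. The exceptions were NDUFB4 and NDUFAF6. In untreated cells the gene means ran from 5.14 for NDUFB4 to 15.01 for NDUFS5, with a median of 8.28. The SD between 3 arrays had a median of 0.08 untreated, 0.09 at 20 nM and 0.07 at 60 nM, and its highest value was 0.38, for NDUFB2 at 20 nM.

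**Figure D1:**
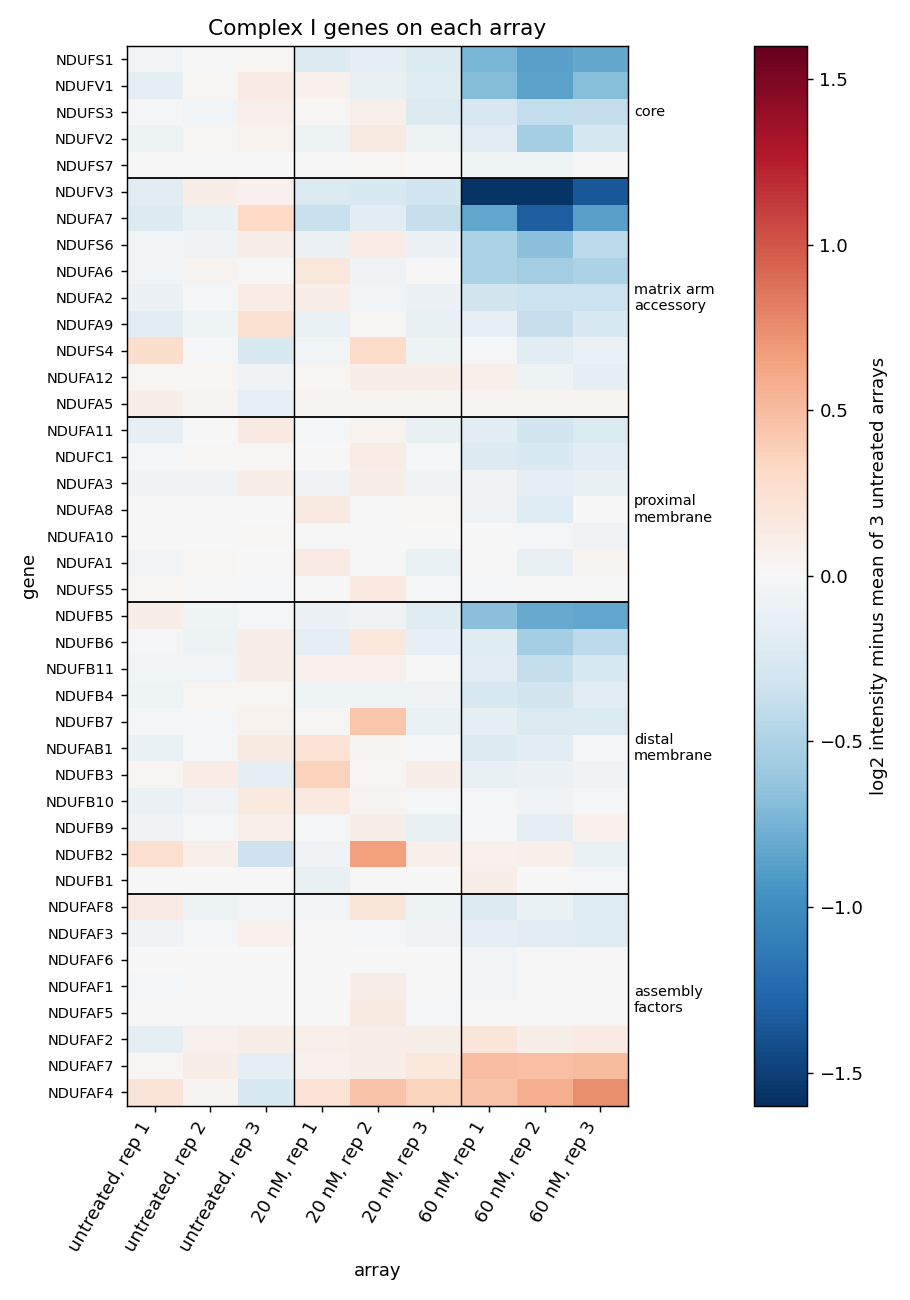
Each row is a complex I gene, each column an array, and the colour gives the log2 intensity minus the mean of the 3 untreated arrays of that gene. In the 60 nM columns the blue cells gather in many of the core and matrix arm accessory subunits and in NDUFB5 and NDUFB6. The red ones there gather in NDUFAF7 and NDUFAF4. The 20 nM columns hold scattered red cells, such as NDUFB2 on replicate 2.

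At 60 nM okadaic acid, 13 of the 40 genes fell against untreated cells and 2 rose. Among all genes, 13.2% fell and 7.94% rose. Among the 9784 genes above background, 26.1% fell and 14.5% rose, against 12 of the 38 complex I genes above background (31.6%) that fell and 2 (5.26%) that rose. The share of falling genes was thus near that of other expressed genes. The median difference of the 40 genes was -0.12, beside 0.00 for all genes and -0.04 for genes above background. For 19 of the 40 genes all 3 arrays at 60 nM lay below all 3 untreated arrays (47.5%), as they did for 19.2% of all genes and 35.7% of those above background. For 2 genes (5%) they lay above, against 14.2% of all genes and 22.4% of those above background. An array score over expressed genes differed between these groups. It contrasts the expressed genes of chromosomes rich in genes with those of chromosomes poor in genes. It lay between -0.02 and 0.12 on untreated arrays and between -0.10 and -0.03 on the 60 nM arrays. The planned score, over all genes, overlapped between the groups. It lay between -0.0030 and 0.0098 untreated and between -0.0046 and -0.0025 at 60 nM. With the score over expressed genes as a covariate, an alternative chosen after seeing the data, 6 genes fell and 1 rose. Of all genes 2937 were then called in place of 4752 (21.2%). When the arrays were shifted to equal hybridisation controls, 5 genes fell and 1 rose. Limma then gave every gene an SE of 0.204, where the median SE of the 40 genes had been 0.07. The differences hardly moved (NDUFA6 from -0.52 to -0.51 and NDUFAF7 from 0.50 to 0.51). The mean of the controls was 9.71 untreated and 9.70 at 60 nM. The part of the chromosome score in the differences was not tested.

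**Figure D2:**
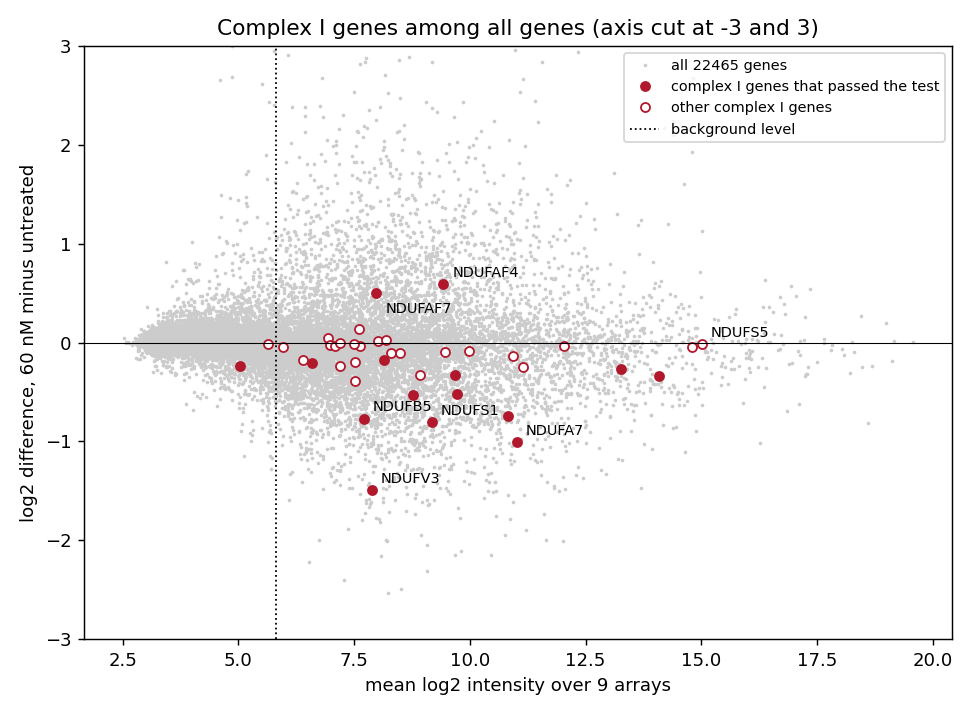
The log2 difference between 60 nM and untreated arrays is set against the mean log2 intensity over 9 arrays, with grey points for all genes, filled circles for called complex I genes and open circles for the other complex I genes; 26 genes lie outside the axis. The complex I genes lie within the cloud of other genes, with NDUFV3 at -1.50 the lowest and NDUFAF4 at 0.59 the highest.

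The matrix arm held most of the genes that fell, 8 of its 14 measured subunit genes (57.1%). In the membrane arm 4 of 18 fell (22.2%), and of the assembly factors 1 of 8 (12.5%). Of all genes 13.2% fell, and of those above background 26.1%. The difference between the arms was not tested. The median difference was -0.34 for the matrix arm, -0.10 for the membrane arm and -0.01 for the assembly factors. For genes above background it was -0.04. Within the matrix arm, 7 of 10 genes of the N module fell (70%), the part that takes the electrons from NADH. Of the others 1 of 4 fell (25%). This split into modules was made after the values were seen.

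NDUFV3, an accessory subunit of the N module next to the NADH-binding site, had the largest fall of the 40 genes. Its log2 intensities were 8.30, 8.57 and 8.53 on the untreated arrays, 8.24, 8.22 and 8.17 at 20 nM, and 6.90, 6.90 and 7.12 at 60 nM. The groups did not overlap, and the 60 nM arrays stood more than a log2 unit below all the others. The difference between 60 nM and untreated was -1.50 (SE 0.09, limma adjusted p = 4.80e-05), so that intensity fell by 64.5%.

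NDUFS1 and NDUFV1 are core subunits that carry cofactors of the electron path. NDUFS1, the largest subunit of the complex and the holder of several iron-sulfur clusters, was at 9.47, 9.52 and 9.54 untreated, at 9.29, 9.35 and 9.30 at 20 nM, and at 8.78, 8.65 and 8.70 at 60 nM. No array of one dose overlapped with another dose, and the 20 nM arrays lay between the others, though their difference from untreated did not pass the test. At 60 nM its difference from untreated was -0.80 (SE 0.04, limma adjusted p = 2.34e-05), the smallest p among the 40 genes. NDUFV1, which binds NADH and the flavin, was at 10.95, 11.12 and 11.23 untreated, at 11.17, 10.98 and 10.91 at 20 nM and at 10.40, 10.24 and 10.42 at 60 nM. Its arrays at 20 nM overlapped the untreated ones and those at 60 nM lay below both, with a difference from untreated of -0.74 (SE 0.10, adjusted p = 0.0015).

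Of the other measured core subunits, NDUFS3, which lies close to the site of ubiquinone reduction, fell by 0.34 (SE 0.09, limma adjusted p = 0.0275). It was at 14.19, 14.18 and 14.30 untreated and at 13.97, 13.83 and 13.84 at 60 nM. Its call ended without untreated replicate 1 (0.0573), 2 (0.0616) or 3 (0.0908) and without 60 nM replicate 2 (0.0932) or 3 (0.0915). NDUFV2, a partner of NDUFV1 with an iron-sulfur cluster, had a difference of -0.33 (SE 0.11, adjusted p = 0.0715) and NDUFS7, which holds the last cluster before ubiquinone, one of -0.05 (SE 0.02, adjusted p = 0.241). Neither passed the test, though for both genes the 3 arrays at 60 nM lay below the 3 untreated ones. For NDUFS7 this says little, since it was close to the background level of 5.82, at 5.98 untreated and 5.93 at 60 nM, with repeated values.

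Among the accessory subunits of the matrix arm NDUFA7, NDUFS6, NDUFA6 and NDUFA2 fell with NDUFV3. NDUFA7 was at 11.23, 11.35 and 11.77 untreated, 11.09, 11.27 and 11.08 at 20 nM and 10.62, 10.13 and 10.58 at 60 nM. Its arrays were the most scattered of these genes, and the 60 nM ones still lay apart from the rest, with a difference from untreated of -1.004 (SE 0.18, limma adjusted p = 0.00619). NDUFA6, a subunit of the LYR family that anchors the acyl carrier protein, was at 9.84, 9.92 and 9.89 untreated, 10.06, 9.82 and 9.89 at 20 nM and 9.38, 9.32 and 9.38 at 60 nM. Its arrays at 20 nM overlapped the untreated ones, and at 60 nM it was 0.52 lower than untreated (SE 0.06, adjusted p = 0.000931).

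NDUFS6, a zinc-binding subunit added late in assembly, had a difference of -0.53 (SE 0.09, limma adjusted p = 0.00426) between 60 nM and untreated. For NDUFA2, which has a thioredoxin-like fold, it was -0.33 (SE 0.07, adjusted p = 0.012). The remaining accessory genes of this arm, NDUFA9, NDUFS4, NDUFA12 and NDUFA5, did not pass the test, with differences between -0.24 and 0.04.

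In the membrane arm NDUFB5, NDUFB11, NDUFB4 and NDUFC1 fell. NDUFB5, an accessory subunit of the distal part, was at 8.11, 7.93 and 7.97 untreated, at 7.91, 7.94 and 7.81 at 20 nM and at 7.33, 7.20 and 7.18 at 60 nM. Only the 60 nM arrays stood apart, by -0.77 from untreated (SE 0.06, limma adjusted p = 0.000197). The X-linked subunit gene NDUFB11 fell by 0.27 (SE 0.06, adjusted p = 0.0174), and NDUFC1, of the proximal part, by 0.21 (SE 0.04, adjusted p = 0.0128). NDUFB4 fell by 0.23 (SE 0.04, adjusted p = 0.00526) at levels below background in all groups, where a difference says little about the transcript.

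The other 14 membrane arm genes did not pass the test. NDUFB6 came closest, with 7.62, 7.57 and 7.77 untreated and 7.46, 7.11 and 7.23 at 60 nM (difference -0.39, SE 0.12, limma adjusted p = 0.0583). The brightest of the 40 genes was among them: NDUFS5 was at 15.01 ± 0.03 untreated and at 14.99 ± 0.01 at 60 nM (SD, n = 3), groups that overlapped. NDUFAB1, which encodes the mitochondrial acyl carrier protein that sits in the complex as well as in fatty acid synthesis, had a difference of -0.14 (SE 0.09, adjusted p = 0.387). NDUFB2 had the highest SE (0.21), and the 95% interval of its difference ran from -0.49 to 0.52.

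**Figure D3:**
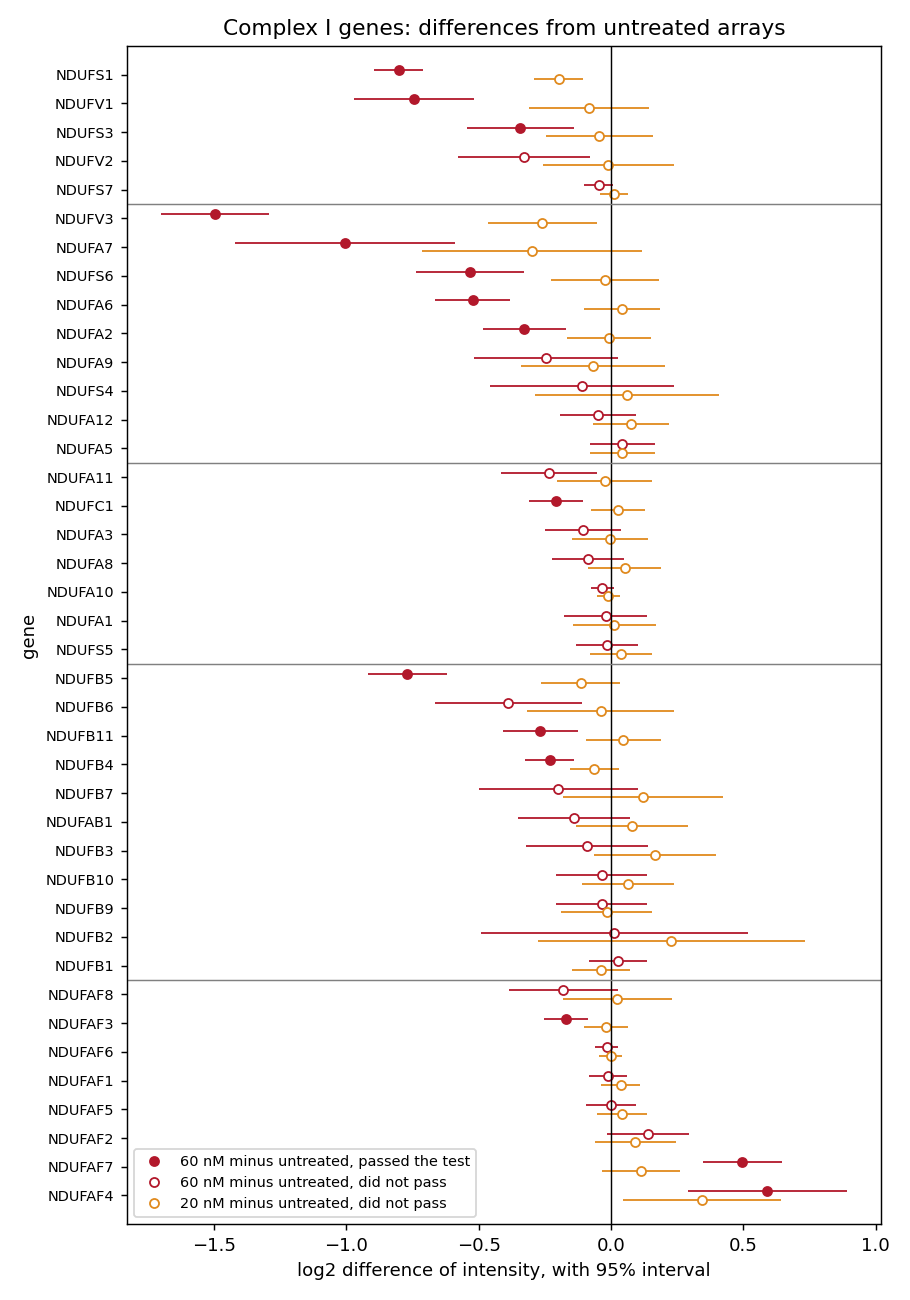
Points are the log2 differences of 60 nM (red) and 20 nM (orange) from the same untreated arrays with their 95% intervals, for each of the 40 genes in the order core, matrix arm accessory, proximal membrane arm, distal membrane arm and assembly factors; filled points passed the test. At 60 nM 13 genes lie to the left and 2 to the right as filled points, and all points at 20 nM are open.

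Both complex I genes that rose at 60 nM encode assembly factors, 2 of the 8 measured (25%). Of all genes 7.94% rose, and of those above background 14.5%. NDUFAF7, a methyltransferase that acts early in assembly, was at 7.81, 7.89 and 7.63 untreated, at 7.85, 7.88 and 7.95 at 20 nM and at 8.27, 8.26 and 8.29 at 60 nM. Its 60 nM arrays agreed closely and lay above all others, 0.50 above untreated (SE 0.06, limma adjusted p = 0.00138). NDUFAF4, which acts on the early matrix arm intermediates, was at 9.32, 9.15 and 8.87 untreated, at 9.34, 9.56 and 9.46 at 20 nM and at 9.57, 9.69 and 9.85 at 60 nM. No arrays of the groups overlapped, but the nearest ones were close. They were 9.319 untreated and 9.340 at 20 nM, and 9.564 at 20 nM and 9.566 at 60 nM. The difference between 60 nM and untreated was 0.59 (SE 0.13, limma adjusted p = 0.0146). This call ended under 4 of 22 alternatives, among them the fit without 60 nM replicate 3 (0.0537).

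NDUFAF3, the partner of NDUFAF4 in assembly, moved the other way and fell by 0.17 (SE 0.04, limma adjusted p = 0.012), from 8.17, 8.21 and 8.29 to 8.08, 8.05 and 8.02. The other 5 assembly factors did not pass the test. NDUFAF2, a paralog of NDUFA12 that attends the addition of the N module, had a difference of 0.14 (SE 0.07, adjusted p = 0.211). The difference was -0.18 (SE 0.09) for NDUFAF8, -0.01 (SE 0.03) for NDUFAF1, 0.00 (SE 0.04) for NDUFAF5, which hydroxylates NDUFS7, and -0.02 (SE 0.02) for NDUFAF6. NDUFAF6 was below background in all groups. Values of NDUFAF1, NDUFAF5 and NDUFAF6 were the same on several arrays, with NDUFAF5 at 7.19 on all untreated and all 60 nM arrays, which can make their SE too small.

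**Figure D4:**
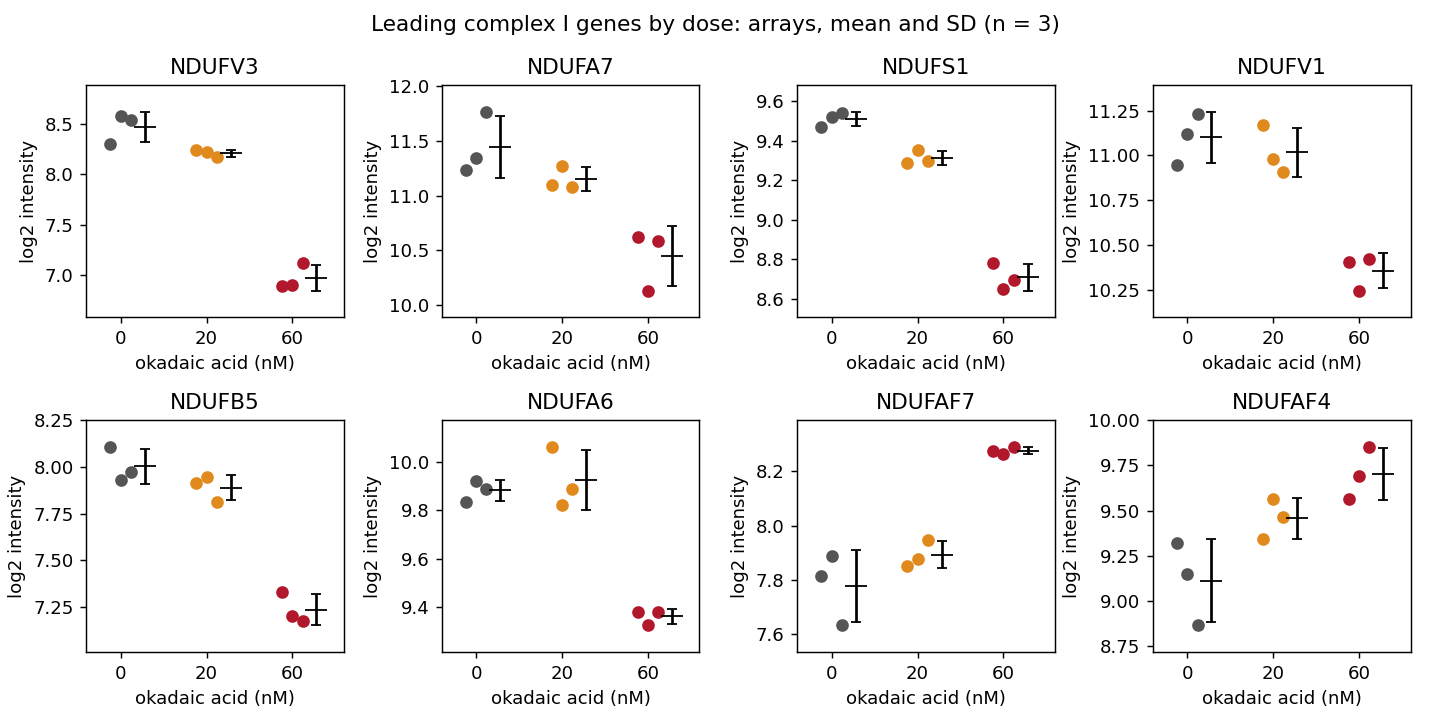
Log2 intensity is plotted for the 3 doses, spaced evenly, for 8 complex I genes, with a point for each array and a bar for the mean and SD of 3 arrays; each panel has its own axis, which does not start at 0. The 60 nM arrays lie below all others in the first 6 panels and above all others for NDUFAF7 and NDUFAF4.

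Sequences before the start of transcription are given for the 3 genes with the smallest p that fell and were found in the promoter table, and for the riser with the smallest p, so that genes that moved in opposite directions can be set side by side. They are the 250 bases before the RefSeq start site in GRCh38.p14. The regions are chr2:206159445-206159694 on the minus strand for NDUFS1, chr21:42893059-42893308 on the plus strand for NDUFV3, chr22:42090773-42091022 on the minus strand for NDUFA6 and chr2:37231408-37231657 on the plus strand for NDUFAF7. Capitals mark matches, on either strand, to the NRF1 motif (GCGCA, then 1 base of any kind, then GCGC), the ETS motif CCGGAAGT that GABPA binds, the YY1 motif AAGATGGC or the GC box GGGCGG.
NDUFS1: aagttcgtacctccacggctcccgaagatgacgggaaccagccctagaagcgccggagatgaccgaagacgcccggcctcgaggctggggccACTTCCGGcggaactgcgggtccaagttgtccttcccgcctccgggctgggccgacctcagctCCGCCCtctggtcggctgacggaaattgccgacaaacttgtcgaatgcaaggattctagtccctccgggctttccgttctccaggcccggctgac
NDUFV3: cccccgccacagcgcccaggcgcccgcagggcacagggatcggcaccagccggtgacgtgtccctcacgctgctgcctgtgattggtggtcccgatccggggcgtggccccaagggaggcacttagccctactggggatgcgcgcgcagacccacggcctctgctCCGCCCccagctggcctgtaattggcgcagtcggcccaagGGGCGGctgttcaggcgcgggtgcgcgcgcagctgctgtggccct
NDUFA6: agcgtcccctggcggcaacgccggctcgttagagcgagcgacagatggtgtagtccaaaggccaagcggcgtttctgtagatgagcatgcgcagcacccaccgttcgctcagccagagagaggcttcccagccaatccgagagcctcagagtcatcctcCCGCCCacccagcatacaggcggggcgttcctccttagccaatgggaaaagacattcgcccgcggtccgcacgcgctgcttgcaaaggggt
NDUFAF7: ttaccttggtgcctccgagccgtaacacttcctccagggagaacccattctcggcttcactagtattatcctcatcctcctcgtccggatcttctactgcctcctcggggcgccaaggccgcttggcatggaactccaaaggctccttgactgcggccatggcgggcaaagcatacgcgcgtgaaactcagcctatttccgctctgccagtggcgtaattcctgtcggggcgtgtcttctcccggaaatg
NDUFS1 held an ETS match on the minus strand at -158 to -151 from the start and a GC box. NDUFV3 held GC boxes on both strands, NDUFA6 a GC box, and NDUFAF7 no match in the 250 bases shown. The NDUFA6 transcript also matched the YY1 motif 26 to 33 bases after the start, outside the stretch shown.

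Promoters from 250 bases before to 50 after the start were found for 36 of the 40 genes. The NRF1 motif, bound by a factor known for nuclear genes of respiration, was in 7 of them (19.4%) and in 6.28% of all 27305 promoters of the table. The YY1 motif was in 6 (16.7%, against 3.03%), the ETS motif in 1 (2.78%, against 4.44%) and the GC box in 20 (55.6%, against 44.6%). Of the 12 falling genes with a promoter, 1 held the NRF1 motif, 1 the ETS motif, 2 the YY1 motif and 9 the GC box, and the 2 rising genes held none of them. Both strands were searched, and matches to different motifs could overlap. A match describes the letters of the window and not a site in use.

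At 20 nM none of the 40 genes passed limma's test against untreated cells, and 3 (7.5%) had an unadjusted p under 0.05, as had 4.98% of all genes and 7.76% of those above background. This comparison shares its untreated arrays with that of 60 nM. Of all genes 0.0089% were called lower and 0.0134% higher at this dose (0.0223% together). The median difference of the 40 genes was 0.01, and 2 genes had all 3 arrays below and 1 all 3 arrays above the untreated ones, as 3.44% and 2.57% of all genes had. The genes with the smallest p were NDUFS1 (-0.20, SE 0.04, limma adjusted p = 0.345, interval -0.29 to -0.10), NDUFV3 (-0.26, SE 0.09, adjusted p = 0.835, interval -0.46 to -0.05) and NDUFAF4 (0.34, SE 0.13, adjusted p = 0.923, interval 0.05 to 0.64). With the shift to equal hybridisation controls, which were lower at 20 nM (mean 9.42) than untreated (9.71), the differences of NDUFS1 and NDUFV3 turned to 0.0945 and 0.0327. NDUFS1, NDUFV3 and NDUFAF4 were the genes whose 20 nM arrays did not overlap the untreated ones. NDUFAF7 (0.11), NDUFB5 (-0.11) and NDUFB3 (0.17) followed, with intervals that included 0. For NDUFV1 the interval at 20 nM ran from -0.31 to 0.14, and for NDUFA6 from -0.10 to 0.19, so that falls of the size seen at 60 nM lay outside them.

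Between the doses, 12 of the 40 genes were lower at 60 nM than at 20 nM and 1 was higher, where 10.9% of all genes were lower and 6.94% higher. Among genes above background 22.2% were lower, beside 11 of 38 complex I genes (28.9%), and 12.5% were higher, beside 1 of 38 (2.63%). Over the 40 genes, 22 had all 3 arrays at 60 nM below those at 20 nM and 2 had all 3 above, as had 18.7% and 12.5% of all genes and 35.3% and 21.0% of those above background; 17.8% of all genes were called in either direction. The median difference was -0.17, against 0.00 for all genes and -0.04 for those above background. The smallest p values belonged to NDUFS1 (-0.61, SE 0.04, limma adjusted p = 0.000112), NDUFV3 (-1.24, SE 0.09), NDUFB5 (-0.65, SE 0.06), NDUFA6 (-0.56, SE 0.06) and NDUFV1 (-0.66, SE 0.10), and NDUFAF7 was the gene that was higher (0.38, SE 0.06, adjusted p = 0.00574). NDUFAF4, which was 0.25 higher at 60 nM than at 20 nM (SE 0.13), did not pass the test between the doses (adjusted p = 0.274). The arrays at 60 nM serve both comparisons, which are therefore not independent.

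Probe sets shared with another gene were outside the 40 genes and were not tested. The set shared by the core subunit gene NDUFS8 and the microRNA gene MIR4691 was at 10.19, 10.20 and 10.49 untreated, at 10.07, 10.24 and 10.02 at 20 nM and at 9.37, 9.21 and 9.41 at 60 nM. Its 60 nM arrays lay below the other 6, with a mean 60 nM level of 9.33 ± 0.11 (SD, n = 3) and an untreated one of 10.29 ± 0.17. Sets shared by NDUFB8 and SEC31B and by NDUFA13 and YJEFN3 were below background, and the set of NDUFC2 and KCTD14 was at 6.80 on 8 of 9 arrays. NDUFA4 and the subunit genes of mitochondrial DNA were not analysed here.

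Genes that act with complex I were described as whole lists. Of 11 complex I assembly factors without an NDUF name, 4 fell at 60 nM against untreated (36.4%) and 1 rose (9.09%). Of all genes 13.2% fell and 7.94% rose. Of genes above background, which held 10 of the 11, 26.1% fell and 14.5% rose. TIMMDC1, a membrane protein needed to build the membrane arm, fell by 1.18 (SE 0.12, limma adjusted p = 0.000499) from 13.69 ± 0.06 to 12.51 ± 0.23 (SD, n = 3). ACAD9, an acyl-CoA dehydrogenase relative that serves the assembly of the membrane arm, fell by 0.67 (SE 0.10, adjusted p = 0.00306), and DMAC1, of the distal membrane arm, by 0.27 (SE 0.07, adjusted p = 0.023). TMEM70, known for the assembly of ATP synthase as well, rose by 0.27 (SE 0.04, adjusted p = 0.00231).

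Of 10 measured genes of iron-sulfur cluster assembly, which supplies the clusters of the matrix arm, 2 fell (20%) and 1 rose (10%) at 60 nM against untreated. These shares were no higher than the 26.1% and 14.5% of genes above background, which held 9 of the 10. Of all genes 13.2% fell and 7.94% rose. The late-acting genes ISCA2 and NFU1 fell by 0.77 (SE 0.09, limma adjusted p = 0.00113) and 0.44 (SE 0.04, adjusted p = 0.000223), while ISCA1, whose protein pairs with ISCA2, rose by 0.57 (SE 0.04, adjusted p = 0.000122). Of 12 measured regulators of mitochondrial gene expression, 9 of them above background, 4 fell (33.3%) and 3 rose (25%). These shares stand beside the same 13.2% and 7.94% of all genes and 26.1% and 14.5% of those above background. TFB1M, a methyltransferase of the mitochondrial ribosome, fell (limma adjusted p = 0.000259) from 6.67 to 5.77, which is below background, so that the size of its fall is not exact. PPARGC1B, a coactivator of respiratory genes, fell by 0.38 (SE 0.06, adjusted p = 0.00485) at a level below background. PPARGC1A, its relative, rose by 0.18 (SE 0.03, limma adjusted p = 0.0089), also below background. GABPB1, a partner of the ETS factor GABPA, rose by 0.42 (SE 0.06, adjusted p = 0.00227). GABPA itself, named for its motif after its values were seen, rose by 1.02 (SE 0.24, adjusted p = 0.0229), with an SD of 0.50 among the untreated arrays. The other called regulators fell at levels above background. They were POLRMT (-0.15, SE 0.03, limma adjusted p = 0.0143) and PPRC1 (-0.40, SE 0.11, adjusted p = 0.0414). At 20 nM none of these 33 genes passed limma's test, and an unadjusted p under 0.05 was found for 0 of the assembly factors, 1 iron-sulfur gene and 2 regulators, where 4.98% of all genes had one.

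Complex I was set beside the other respiratory complexes and the mitochondrial ribosome. Of 38 genes of complexes II to V, 16 fell at 60 nM against untreated (42.1%) and 0 rose by limma, with a median difference of -0.22. An unadjusted p under 0.05 in either direction was found for 25 of them (65.8%), as for 30% of all genes and 54.5% of those above background. Of genes above background, which held 34 of the 38, 26.1% fell, and of all genes 13.2%. Of 74 mitochondrial ribosomal protein genes 24 fell (32.4%) and 1 rose, with a median of -0.14. The share of falling genes in complex I, 32.5%, was close to that of the mitochondrial ribosome and below that of the other complexes. The lists are unlike: the 40 genes include 8 assembly factors, of which 1 fell, and the list of complexes II to V held none. Among complex I subunit genes, 8 of 14 fell in the matrix arm (57.1%) and 4 of 18 in the membrane arm (22.2%). The differences between these lists were not tested. In complex II, which feeds the chain from succinate, 4 of 7 measured genes fell (57.1%, beside the same 26.1% and 13.2%), and 5 of the 7 were above background. Among those that fell were the membrane anchor SDHC (-0.69, SE 0.09, limma adjusted p = 0.00164), the flavin-binding subunit SDHA (-0.31, SE 0.05, adjusted p = 0.00575) and the assembly factor SDHAF2 (-0.43, SE 0.07, adjusted p = 0.00359). SDHAF4, another assembly factor of complex II, fell by 0.41 (SE 0.08, limma adjusted p = 0.00898) at a level below background.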

How the data were processed

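The deposited table holds 70523 probe sets with an intensity for each of the 9 arrays. The submitters' processing notes name RMA, and neither its version nor a build is given in the sources used here. Intensities as deposited by the authors are linear (median 21.8, highest 999953), and log2 was taken without an offset. Whether anything was done to them after RMA is unknown. Values repeat: 12364 of 22465 genes, and 14 of the 40 members, have 3 or more arrays at 1 value to 4 decimals. Names came from the platform annotation, in which 23781 had 1 symbol, 1543 had several, 42204 transcript clusters had none and 2995 were control or exon-level sets. All 40 member symbols were found in a RefSeq gene table of GRCh38.p14, used for names and chromosomes; promoter sequences are RefSeq's, in GRCh38.p14.

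A single limma model (version 3.58.1, R 4.3.3, lmFit then eBayes) with a term per group and no covariate covered the 9 arrays and all 22465 genes, and p-values were adjusted by Benjamini-Hochberg over all of them. The fit was run on simulated data with independent normal noise. These held no repeated values and no effects shared by an array, so the run cannot show how the fit behaves with them. Full statistics are given for the 14 called members of smallest p, every member that rose, all NDUFAF genes and the members of smallest p in the other contrasts. Of each other list up to 4 called genes are named, apart from the regulators, whose called genes are all named. Members and lists were chosen with earlier results of these data known. Replicate numbers were not used as pairs in this model. Same-numbered arrays of different groups had deviations that correlated at -0.68 to 0.13 across genes above background. For differently numbered arrays the range was -0.485 to 0.65. Deviations within a group constrain one another, so these values cannot decide whether the arrays were paired. Alternatives covered scaling, an offset of 16, dim genes, probe sets, moderation, the arrays fitted, the replicate block, array scores and repeated values. Figures were drawn with matplotlib 3.10.9.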

Additional observations from a re-analysis of the deposited data

How the results depend on the processing

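Of the 15 calls at 60 nM against untreated, 5 held under all 22 alternatives (NDUFV3, NDUFA7, NDUFS1, NDUFB5 and NDUFV1) and 13 when any 1 array was left out. Falling genes numbered 13. They were 5 after a shift by the hybridisation controls, where limma gave every gene an SE of 0.204, and 6 with the score of gene-dense against gene-poor chromosomes over expressed genes. Under the other alternatives, leaving out 1 array included, they were 11 to 15. Rising genes at 60 nM against untreated were 2, and 1 with the control shift, with only the 6 arrays compared, with the replicate block and with that chromosome score; leaving out 1 array gave 1 to 2. Between the doses, falling genes were 12 (8 to 12 leaving out 1 array), and the rising gene, NDUFAF7, lost its call with the control shift (0 genes, with 3091 of all genes still called by limma). With the replicate block 11 members fell against untreated and 9 between the doses.

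The median difference of the members was -0.22 for 60 nM against untreated and -0.25 between the doses when genes with repeated values were left out, which removed 14 members. Between the doses it was -0.46 with the control shift and -0.12 with the chromosome score, and for 20 nM against untreated 0.30 with the control shift. The control shift also turned the uncalled 20 nM differences of NDUFS1 (0.0945), NDUFV3 (0.0327) and NDUFB5 (0.178) positive. That of NDUFAF1 at 60 nM, also uncalled, turned to 0.0289 with quantile normalization and to 0.00543 without 60 nM replicate 1 (range leaving out 1 array -0.0201 to 0.00543). The causes were not tested. Over all genes, 2248 were called with the control shift and 2937 with the chromosome score, in place of 4752. At 20 nM the calls over all genes were 5, with 0 to 27 under the alternatives. Signal near background limits NDUFB4, NDUFAF6 and NDUFS7.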
